A study of Homo sapiens with 6 samples.

Results

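PRMT1 and H3-3A were followed on 6 arrays of RNA from MDA-MB-231, a human breast cancer cell line, 1 array for each 24 h treatment with PBS, LPS, IL1b, TNFa, IL6 or TGFb. They are 2 of 20 mRNAs spotted repeatedly on the array, among 60596 target probes used. Both were found by their plain RefSeq mRNA accession, NM_001536 for PRMT1 and NM_002107 for H3-3A (older symbol H3F3A), and each had 1 probe with 10 spots per array. The pair was selected on earlier results of these same arrays, in which PRMT1 alone of these mRNAs differed at least 2-fold from PBS, so its differences from PBS are given as a description. The study was a screen for non-coding RNAs that respond to inflammation, and these mRNAs were measured on the same arrays. PBS is the control. LPS is bacterial lipopolysaccharide, IL1b and TNFa are inflammatory cytokines, IL6 acts through STAT3, and TGFb acts through SMAD proteins. No doses were given in the labels. Each treatment had 1 array of a single cell line, so there was no replicate, no test was possible, and precision is limited by the number of arrays. Repeat spots are copies of 1 probe under 1 hybridization, and their SD covers spot noise alone.

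PRMT1 is the main cellular enzyme that places asymmetric dimethyl marks on arginine. Its substrates include histone H4, on which the mark is linked to active transcription, and many RNA-binding proteins. H3-3A encodes the histone variant H3.3, which is made throughout the cell cycle and is placed into chromatin independently of DNA replication, with the chaperone complexes of HIRA and of DAXX and ATRX. A separate gene, H3-3B, encodes the same protein. Neither gene is a classical marker of inflammation.

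The stretches upstream of both genes are shown because the cytokines used here end on transcription factors with known recognition motifs. The sequences are the 250 bases before a transcript start in RefSeq on GRCh38.p14, read 5′ to 3′ on the plus strand, with CCAAT boxes (CCAAT, or ATTGG on the other strand) and GC boxes (GGGCGG, or CCGCCC on the other strand) in capitals. The table held 1 such window for PRMT1 and 4 for H3-3A. It does not say which start belongs to NM_002107, and the window shown is the most downstream of the 4, which lies inside the span of transcripts that start further upstream. PRMT1 lies at chr19:49677021-49677270 and H3-3A at chr1:226062466-226062715.
PRMT1: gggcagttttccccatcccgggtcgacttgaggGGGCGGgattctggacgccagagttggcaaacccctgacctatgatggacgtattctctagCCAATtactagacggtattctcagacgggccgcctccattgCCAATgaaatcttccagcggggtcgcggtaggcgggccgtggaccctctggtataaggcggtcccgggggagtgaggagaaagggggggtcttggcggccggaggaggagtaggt
H3-3A: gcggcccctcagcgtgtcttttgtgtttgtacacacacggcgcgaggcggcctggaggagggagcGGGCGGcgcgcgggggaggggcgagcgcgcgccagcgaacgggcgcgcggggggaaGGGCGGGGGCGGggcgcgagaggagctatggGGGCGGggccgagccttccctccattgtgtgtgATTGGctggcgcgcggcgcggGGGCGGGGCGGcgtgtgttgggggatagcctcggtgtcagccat
The PRMT1 window held 2 CCAAT boxes, 156 and 115 bases before the start, and 1 GC box. The H3-3A window held 1 CCAAT box, 65 bases before the start, and 6 GC boxes, of which a neighbouring pair overlaps. Both motifs are common, since a CCAAT box was in 32.0% and a GC box in 42.6% of 35116 windows of the same length. The NF-kB consensus motif (in 5.21% of windows), the STAT motif TTCNNNGAA (6.57%) and the SMAD binding element GTCTAGAC (0.182%), searched on both strands, had 0 matches in either stretch. That says only that these letters are not in these 250 bases. The GC box can overlap a match of the NF-kB motif in other windows.

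The arrays differed as a whole. The share of probes well above background ran from 33.2% after PBS to 68.4% after IL6, and negative control spots, which match no human transcript, passed the same limit in 0.5% of cases after PBS, 12.8% after IL6 and 11.2% after TGFb. Before normalization, the median over all probes lay 0.77 (log2) above PBS after LPS, 1.83 after IL1b, 1.09 after TNFa, 2.17 after IL6 and 2.13 after TGFb. All 10 spots of PRMT1 and of H3-3A were well above background on all 6 arrays, and 0 were saturated. Of 17 markers of the cell line and of other cells, 0 were found among the 1365 named probes, so the identity of the cells was not checked here. In such RNA from a whole culture, a change in level within cells and a change in the mix of cells cannot be told apart.

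PRMT1 was higher on all 5 treated arrays than on the PBS array, except after TGFb where arrays were scaled to their overall 75th percentile (-0.10). On the raw scale, its spots after PBS had intensities of 1050 to 1253 with a median of 1141. The median raw intensity was 5023 after LPS, 10688 after IL1b, 6142 after TNFa, 5428 after IL6 and 3578 after TGFb. Every treated array was thus brighter for PRMT1 before normalization, as these arrays were for most probes.

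After quantile normalization, which gives all arrays the same distribution of log2 intensity, the PRMT1 level was 11.27 ± 0.071 after PBS (SD over 10 spots). The level was 12.36 ± 0.039 after LPS, 12.60 ± 0.05 after IL1b and 12.62 ± 0.029 after TNFa, the last over 7 spots because 3 were flagged as outliers by the scanner software. After IL6 it was 12.09 ± 0.076, and after TGFb 11.80 ± 0.17, the widest spot SD of PRMT1. The highest PBS spot, at 11.39, lay under the lowest spot after TGFb (11.59), IL6 (11.97), LPS (12.30), IL1b (12.51) and TNFa (12.57), so that PBS spots overlapped with those of no treated array. Such a gap between spots holds no error between arrays. How often it occurs among other probes was not counted, so nothing particular to PRMT1 is read from it.

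The difference of PRMT1 from PBS was 1.09 (2.13-fold) after LPS, 1.33 (2.52-fold) after IL1b, 1.36 (2.56-fold) after TNFa, 0.82 (1.77-fold) after IL6 and 0.53 (1.44-fold) after TGFb. The spot SD of these differences was 0.081, 0.087, 0.077, 0.1 and 0.18 in the same order. All 5 share the single PBS array, so an error in that array moves all of them together. Taken spot by spot, at the same place in the files, 9 of 10 PRMT1 spots were at least 2-fold higher after LPS, 10 of 10 after IL1b and 7 of 7 after TNFa. Only 1 of 10 reached 2-fold after IL6, and 0 of 10 did after TGFb, where the spot differences ran from 0.28 to 0.87. These are counts of repeat spots and not of replicates. They restate the differences between arrays beside the spot noise.

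**Figure D1:**
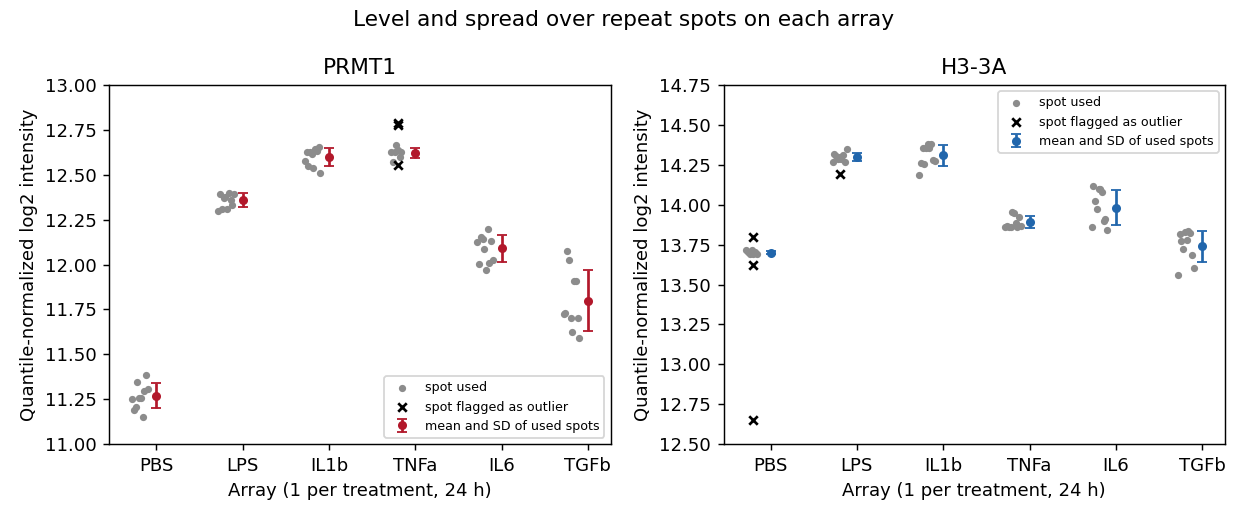
Quantile-normalized log2 intensity of PRMT1 (left) and H3-3A (right) on each of the 6 arrays; grey points are repeat spots, crosses are spots flagged as outliers and not used, and the coloured point and bar are the mean and SD of the used spots. PRMT1 is lowest after PBS (11.27) and highest after IL1b and TNFa (12.60 and 12.62), and 1 flagged H3-3A spot after PBS lies at 12.65, far under the others.

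The treated arrays were also set against each other for PRMT1, which leaves the PBS array out. In order of level they were TNFa, IL1b, LPS, IL6 and TGFb. TNFa and IL1b differed by 0.021, less than their spot SD of 0.058, so these neighbours were not separated. IL1b stood 0.24 above LPS, IL6 0.27 below LPS, and TGFb 0.29 below IL6, each more than the spot SD of the pair, although spots of IL6 and TGFb overlapped. The widest gap was between TNFa and TGFb, at 0.83. Error between arrays has no measure here, and the IL6 and TGFb arrays are those with the most negative control spots above background; the part of that in their lower PRMT1 level was not tested. The place of IL6 beside LPS turned with the scale, from -0.97 under the overall 75th percentile to 0.054 above it when scaled to the 16 other mRNAs described further on and 0.10 above it without normalization. TNFa minus IL1b was -0.78 without normalization, and between 0.003 and 0.062 under the other 8 settings with PBS as control, the main one included. TGFb was the lowest of the 5 treated arrays under all 9 of those settings, with a difference from LPS of -1.38 to -0.24.

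H3-3A had smaller differences than PRMT1 on every treated array. Its median raw intensity was 6632 after PBS, 20199 after LPS, 35211 after IL1b, 14575 after TNFa, 19468 after IL6 and 14344 after TGFb. After normalization its level was 13.70 ± 0.011 after PBS (SD over 7 spots) and 14.30 ± 0.026 after LPS (9 spots). Over 10 spots each, it was 14.31 ± 0.066 after IL1b, 13.89 ± 0.038 after TNFa, 13.98 ± 0.11 after IL6 and 13.74 ± 0.098 after TGFb. LPS and IL1b were the high arrays, and their spots overlapped. The 7 used PBS spots (13.69 to 13.72) lay inside the range after TGFb (13.56 to 13.83) and below every spot of the other 4 treated arrays, of which the lowest was 13.84 after IL6. As for PRMT1, such a gap between spots holds no error between arrays.

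The difference of H3-3A from PBS was 0.60 after LPS (1.51-fold), 0.60 after IL1b (1.52-fold), 0.18 after TNFa (1.13-fold), 0.28 after IL6 (1.22-fold) and 0.038 after TGFb (1.03-fold). After TGFb it was smaller than the spot SD of the difference, 0.099, and the array was not separated from PBS. None of the 7 H3-3A spot pairs reached 2-fold with any treatment. Set against each other, LPS and IL1b differed by 0.007 and TNFa and IL6 by 0.10, both within the spot SD (0.071 and 0.12). TNFa stood 0.42 below LPS and TGFb 0.56 below it. These pairs were not settled either. IL6 minus TNFa was -0.48 under the overall 75th percentile, 0.23 under cyclic loess, 0.25 when scaled to the 16 other mRNAs and 0.39 without normalization, and IL1b minus LPS ran from -0.19 under the overall 75th percentile to 0.80 without normalization. TNFa and TGFb were below LPS under all 9 settings, with differences of -0.65 to -0.35 and of -1.49 to -0.34.

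A single spot bears on the H3-3A control value. On the PBS array 1 of the 10 spots had a raw log2 intensity of 11.62, while the other 9 lay between 12.62 and 12.78. It was flagged with 2 more and left out here. The spot at the same place was also the lowest of its 10 on the LPS, IL1b and TGFb arrays, by gaps of 0.080, 0.072 and 0.034, beside 1.00 after PBS. In the authors' deposited table, H3-3A stood at 13.58 after PBS, which is the mean over all 10 spots here (13.58) and not the 13.70 without the flagged spots. The differences of the authors' deposited table were accordingly 0.70 after LPS, 0.72 after IL1b, 0.30 after TNFa, 0.40 after IL6 and 0.16 after TGFb. For PRMT1, which had no flagged PBS spot, the authors' deposited table gave 11.27 after PBS, as here, and its largest gap to the values here was 0.018, after TNFa.

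PRMT1 and H3-3A thus differed from PBS by unequal amounts on the same arrays. The difference of PRMT1 exceeded that of H3-3A by 0.49 after LPS, 0.73 after IL1b, 1.17 after TNFa, 0.54 after IL6 and 0.49 after TGFb. This comparison within an array is the same under any scaling that multiplies a whole array by 1 factor. The raw shifts were not of that kind. After IL6 the median of the 16 other mRNAs described further on lay 0.83 above PBS and that of all probes 2.17. PRMT1 was dimmer than H3-3A (mean levels 12.12 and 13.99), and the part of such unequal shifts in the excess was not tested. On the unnormalized log2 scale the excess was 0.52, 0.80, 1.26, 0.68 and 0.62 in the same order. With all spots kept it was 0.39, 0.61, 1.08, 0.42 and 0.37. It was widest after TNFa, where after quantile normalization PRMT1 differed from PBS by 1.36 and H3-3A by 0.18. These values too share the PBS array, and PRMT1 was chosen by its differences from PBS, so its excess over H3-3A is a description alone. Taken against the other 5 arrays by their median, the excess was 0.63 after TNFa and 0.091 after IL1b, and it was below 0 after LPS (-0.15), IL6 (-0.37) and TGFb (-0.32).

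The other mRNAs with repeat spots give a frame for these values, since they share the spotting, the labelling and the PBS array. Of the 20, 18 were well above background on all 6 arrays, including both members. PRMT1 had the highest difference from PBS of the 18 after LPS, IL1b, TNFa and IL6, and the second highest after TGFb, after ODC1, the first enzyme of polyamine synthesis (0.69). Without normalization PRMT1 had the same ranks. Since PRMT1 was chosen by its differences from PBS among these same mRNAs, its ranks are a description alone. H3-3A had rank 5 of 18 after LPS and IL1b, 8 after IL6 and 9 after TNFa and TGFb. Over the 16 other mRNAs the median difference was 0.14 after LPS, 0.19 after IL1b, 0.10 after TNFa, 0.078 after IL6 and -0.011 after TGFb. Their range ran from -0.23 to 0.84 after LPS and from -0.70 to 0.53 after IL6. Most of these 16 are very bright transcripts, such as ACTB with a mean level of 16.74.

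**Figure D2:**
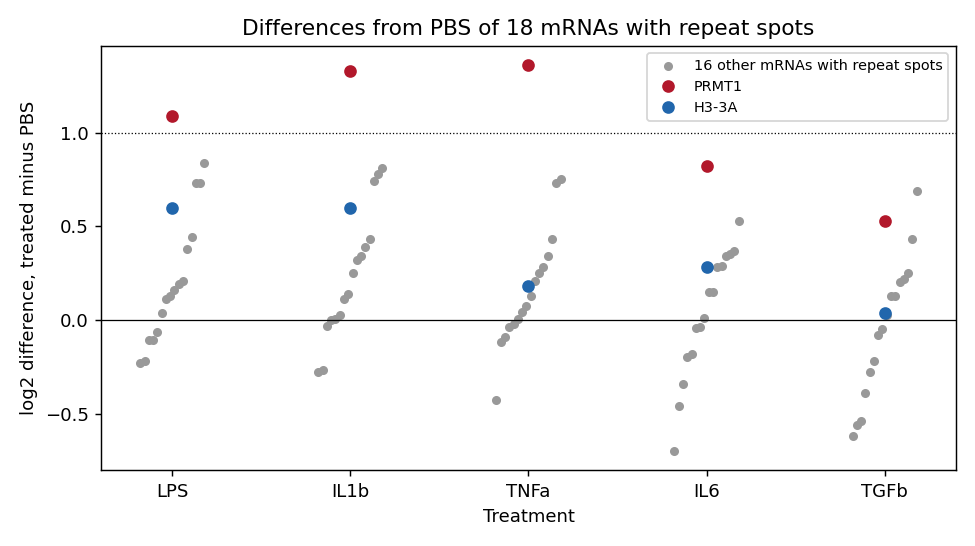
Differences from PBS (log2, quantile-normalized) of the 18 mRNAs with repeat spots that were well above background on all 6 arrays, by treatment; grey points are the 16 others in ascending order, red is PRMT1 and blue is H3-3A, and the dotted line marks 2-fold. PRMT1 lies above all grey points except after TGFb, where ODC1 is higher at 0.69, and H3-3A lies among them.

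After quantile normalization only 1 of the 18, PRMT1, was at least 2-fold higher than PBS after LPS, IL1b or TNFa, and 0 were after IL6 or TGFb. The count rests on the scale. It was 6 after LPS, 16 after IL1b, 7 after TNFa, 6 after IL6 and 6 after TGFb without normalization, and 4, 5, 3, 3 and 2 when scaled to the 16 other mRNAs. It was 2 after LPS under the overall 75th percentile. The next below that threshold were EIF3D at 0.84 after LPS and 0.81 after IL1b, and ODC1 at 0.75 after TNFa. Among all probes well above background on both arrays, the share at least 2-fold higher was 6.87% after LPS, 9.43% after IL1b, 9.06% after TNFa, 9.64% after IL6 and 10.0% after TGFb. In the range of mean levels from 11 to 13, which holds PRMT1, it was 7.96%, 11.3%, 11.1%, 11.3% and 11.5% in the same order. Since PRMT1 was chosen by this contrast, nothing is read from its place there. A difference at least as high as that of PRMT1 was found in 5.54% of probes after LPS, 4.54% after IL1b, 4.39% after TNFa, 13.4% after IL6 and 24.1% after TGFb. For H3-3A the shares were 16.6%, 19.1%, 31.6%, 31.6% and 45.4%. By this measure a TGFb difference like that of H3-3A was close to the middle of all probes, and differences like that of PRMT1 were held by 862 to 1083 probes after LPS, IL1b or TNFa. The median difference of all these probes was -0.15 after LPS, -0.24 after IL1b, -0.21 after TNFa, -0.11 after IL6 and -0.058 after TGFb.

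The values after IL6 and TGFb moved with the scale. With each array scaled to its overall 75th percentile, PRMT1 differed by 1.28 after LPS, 1.37 after IL1b and 1.37 after TNFa, but by 0.31 after IL6 and -0.10 after TGFb. On that scale H3-3A was below PBS after IL6 (-0.36) and TGFb (-0.72). With the 75th percentile taken over the 19077 probes above background on every array, PRMT1 was above PBS on all 5 arrays (0.46 after TGFb) and H3-3A below it after TGFb (-0.16). Scaled to the median of the 16 other mRNAs instead, PRMT1 lay 1.24 above PBS after TGFb and 1.53 after IL6, and H3-3A 0.62 and 0.86. The raw shifts were unequal, and after IL6 the median of the 16 mRNAs lay 0.83 above PBS and that of all probes 2.17. PRMT1 was at least 2-fold above PBS after LPS, IL1b and TNFa under each of these scalings. The sign of PRMT1 after TGFb, and of H3-3A after IL6 and TGFb, turned between them. PRMT1 was chosen by its 2-fold difference from PBS, and all of these scalings use the same PBS array, so they are not separate checks.

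**Figure D3:**
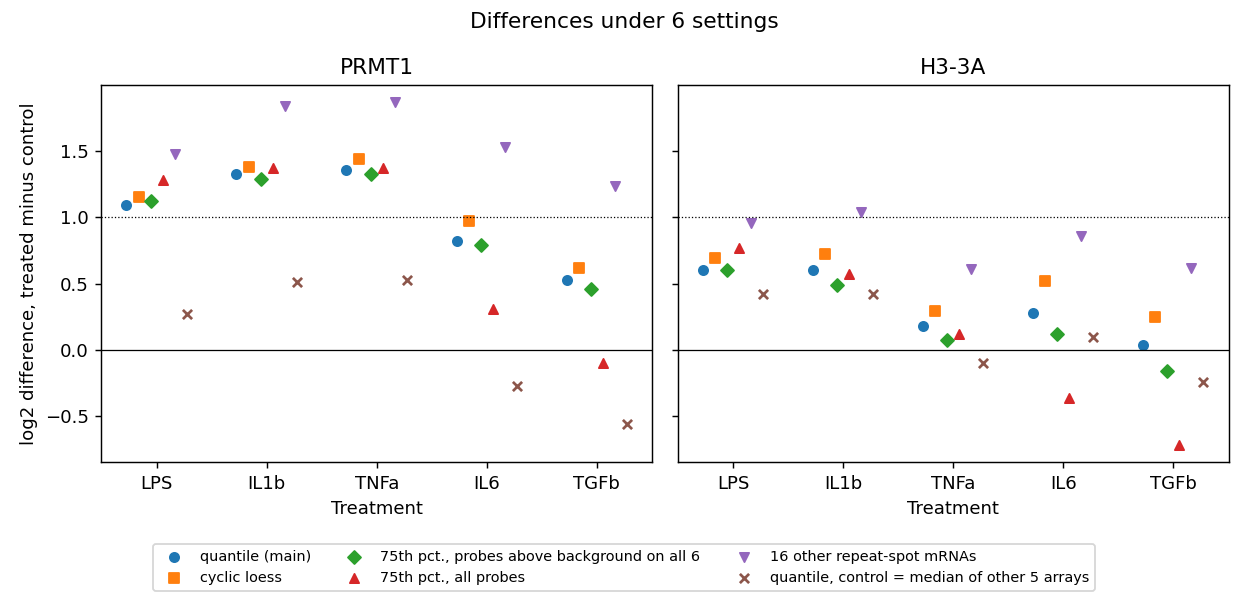
Differences of PRMT1 (left) and H3-3A (right) under 6 settings, as log2 values of the treated array minus the control; each symbol is a setting, the dotted line is 2-fold, and crosses replace PBS by the median of the other 5 arrays. PRMT1 after LPS, IL1b and TNFa lies above the dotted line under all 5 settings that use the PBS array as control and between 0.27 and 0.53 against the other 5 arrays.

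Against the median of the other 5 arrays, PRMT1 lay 0.27 above after LPS, 0.51 after IL1b and 0.53 after TNFa, and below after IL6 (-0.27) and TGFb (-0.56). H3-3A lay 0.42 above after LPS and IL1b, 0.10 after IL6, and below after TNFa (-0.10) and TGFb (-0.24). On this footing no difference of either mRNA reached 2-fold.

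The profiles most like PRMT1 over the 6 arrays were looked for by the root mean square distance between profiles centred on their own means. Among 17 other mRNAs with repeat spots the nearest were EIF3D, a subunit of a translation initiation factor (distance 0.201), ODC1 (0.286) and COX4I1, a subunit of cytochrome c oxidase (0.325), followed by H3-3A as the fourth (0.348). EIF3D differed from PBS by 0.84 after LPS, 0.81 after IL1b, 0.73 after TNFa, 0.53 after IL6 and 0.22 after TGFb. Among 236 other named probes the nearest were uc.153+ (0.203), TncRNA (0.214), the NEAT1 transcript, and uc.141- (0.217), where uc. names mark ultraconserved regions. For H3-3A the nearest mRNAs were COX4I1 (0.161), EIF3D (0.163) and PFN1, which binds actin monomers (0.18), and the nearest other probes were uc.154+ (0.0699), uc.45- (0.103) and uc.471+ (0.137). From the side of H3-3A, PRMT1 was 16th of the 17. With 6 points that share the PBS array and the normalization, such likeness is a description alone.

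Other enzymes and chaperones of these pathways were not measured under a name. Of 28 related genes (other arginine methyltransferases, PRMT1 partners such as BTG1, the second H3.3 gene H3-3B, and H3.3 chaperones), 0 were found among the named probes.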

How the data were processed

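RNA after 6 treatments was measured, 1 array each; groups come from the treatment in the labels. The labels describe a NimbleGen array and an Axon scanner, while the deposited files have the columns of 1-colour Agilent Feature Extraction output; the files were followed. The deposited intensity values are signals already processed by the scanner software, per the file headers, with flags of 0 or 1 per spot (other columns). The authors also deposited a table of log2 values; RMA is named in the submitters' processing notes, and no version or genome build is given in the sources used here. Against the quantile-normalized scanner values, probes well above background differed by a median of 0.00062 or less in each column, and each column had a median of 5.07, so scale and direction are known and genes were not centred.

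Here, spots flagged as outliers (non-uniform or population outlier) and control spots were left out, repeat spots were averaged as log2 intensity, and 60596 of 60639 target probes were quantile normalized in limma 3.58.1 (R 4.3.3). Spots were placed on the normalized scale by interpolation. A probe counted as well above background on an array where more than a share of 0.5 of its spots was so flagged. With 1 array per group, called means at least 2-fold. The counting was tested on simulated arrays whose probes all shared a single shift per array, beside noise and set changes. Raw shifts that differ between groups of probes, as on the arrays here, were not simulated. PRMT1 and H3-3A were matched to symbols through RefSeq (GRCh38.p14). Named beside them are the 3 nearest mRNAs and the 3 nearest other named probes for each, those at the top of a rank, and ACTB as an example chosen after its values were seen. The members and lists were chosen with earlier results of these data known. The 7 alternatives were all spots kept, the spot median, cyclic loess (span 0.7, 3 iterations), 75th percentile scaling in 2 forms, the deposited table and another control; 2 were added after seeing the data, no normalization and scaling to the 16 other mRNAs.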

Additional observations from a re-analysis of the deposited data

How the results depend on the processing

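A value was taken as moved where it shifted by more than the spot SD of the difference, which is a narrow measure since it holds no array to array error. Over 9 alternatives, 20 of 45 PRMT1 differences and 38 of 45 H3-3A differences moved. The spot SD of the difference was 0.077 to 0.18 for PRMT1 and 0.028 to 0.11 for H3-3A. The limit was thus unlike for the 2 mRNAs, and their counts do not rank them by stability. Above 0 stayed 42 of 45 for PRMT1 and 40 of 45 for H3-3A, but these alternatives are not separate checks. All except the median of the other 5 arrays use the PBS array as control. The deposited table stood within 0.0014 of the all-spot values of both mRNAs. Without normalization, all 16 other mRNAs were also higher on every treated array. With all repeat spots kept, H3-3A differed by 0.70 after LPS, 0.72 after IL1b, 0.30 after TNFa, 0.40 after IL6 and 0.16 after TGFb, and the deposited table gave 0.70, 0.72, 0.30, 0.40 and 0.16; the flagged PBS spot at 12.65 enters both. Cyclic loess gave H3-3A 0.69, 0.72, 0.29, 0.52 and 0.25, and PRMT1 1.44 after TNFa and 0.97 after IL6. Scaling each array to its overall 75th percentile gave PRMT1 1.28 after LPS, 0.31 after IL6 and -0.10 after TGFb, and H3-3A 0.77 after LPS, 0.12 after TNFa, -0.36 after IL6 and -0.72 after TGFb. Taken over the 19077 probes above background on every array, it gave H3-3A 0.49 after IL1b, 0.073 after TNFa, 0.12 after IL6 and -0.16 after TGFb. Against the median of the other 5 arrays, PRMT1 lay at 0.27, 0.51, 0.53, -0.27 and -0.56, and H3-3A at 0.42, 0.42, -0.10, 0.10 and -0.24, in the order LPS, IL1b, TNFa, IL6 and TGFb. Without normalization PRMT1 differed by 2.12, 3.20, 2.42, 2.22 and 1.70, and H3-3A by 1.60, 2.40, 1.16, 1.55 and 1.08. Scaled to the 16 other mRNAs, PRMT1 differed by 1.48, 1.84, 1.87, 1.53 and 1.24, and H3-3A by 0.96, 1.04, 0.61, 0.86 and 0.62. Of the 18 mRNAs with repeat spots, 1, 1, 1, 0 and 0 were at least 2-fold higher after quantile normalization, 6, 16, 7, 6 and 6 without normalization, and 4, 5, 3, 3 and 2 on the scale of the 16 mRNAs. The cause of the shifts between scalings was not tested. The median over spots moved no difference of either mRNA. With 1 array per treatment no array could be left out, and no paired fit exists. All spots of both mRNAs were flagged as well above background. Negative control spots also passed that limit in 12.8% of cases after IL6 and 11.2% after TGFb. The part of background in the differences was not tested.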
